A study of Mus musculus with 2 samples.

Results

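The set comprised 10 genes that carry fatty acids from blood lipoproteins into heart muscle, described in the hearts of young male mice. They were taken by name from the gene list of the deposited tables (Lpl, Gpihbp1, Angptl4, Vldlr, Cd36, Slc27a1, Slc27a4, Fabp3, Fabp4 and Fabp5), and the rule uses no measured value. All 10 of 10 were found among the 55450 genes of the tables.

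Heart muscle burns mainly fatty acids, and most of these reach it as triglycerides inside circulating lipoprotein particles. Lipoprotein lipase is made by the muscle cells, is carried to the inner face of the capillary by GPIHBP1 and cuts the triglycerides there, while ANGPTL4 inactivates it. The freed fatty acids cross the endothelium and the muscle membrane with the help of CD36 and the fatty acid transport proteins, and inside the cell they are bound by small fatty acid binding proteins.

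Total RNA was sequenced from heart tissue of male B6CASTF1/J mice at 36 days of age, the first-generation offspring of a cross between the B6 and CAST strains. The series holds 1 group with 2 biological replicates, called replicate 2 and replicate 1, with no treatment and no control group, and the labels give no dissection detail beyond heart. Each stranded, ribosomal RNA-reduced library began with 300 ng of RNA and received ERCC spike-ins, which are synthetic RNAs of known sequence. The labels list the hearts as separate biosamples but name the same donor record for both, without saying if it covers more than a single mouse, so the spread between replicates may be smaller than that between mice. The reference build mm10 is B6, so reads from CAST alleles were counted against B6 sequence.

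Replicate 2 held 42481559 expected counts and replicate 1 held 41846508. With 2 hearts of 1 group no test between groups exists, and p = 0.5 is the smallest value that an exact permutation of signs could give. Differences between the hearts are therefore the spread between replicates, given as log2 of replicate 2 over replicate 1 with a 95% interval that covers counting error only. The rule of size used here counted a gene as past 2-fold if the hearts differed by at least that fold and its expected counts averaged at least 50. Levels are in TPM, a unit of relative transcript abundance that is scaled by length and can be compared between genes, and 2 quantifications of the same reads were deposited. Unless the second is named, values are from the first.

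All 8 cardiomyocyte markers were abundant in both hearts, from Myh6, the adult cardiac myosin heavy chain, at 8514 TPM in replicate 2 and 7641 TPM in replicate 1, to Ryr2, the calcium release channel, at 374 TPM in replicate 2 and 351 TPM in replicate 1. Fast skeletal myosin genes were near 0, with Myh4 at 5 counts and Myh1 and Myh2 at 1 count each in replicate 2, and all 3 at 0 counts in replicate 1. In the second quantification Myh1 had 0.152 TPM in replicate 2 and 0.241 TPM in replicate 1. Of the other genes in the skeletal muscle list, Ckm, the creatine kinase of muscle, had 1675 TPM in replicate 2 and 1489 TPM in replicate 1. Tnni2, Mylpf, Tnnt3 and Actn3 had at most 1.26 TPM in either heart. Adipocyte and red blood cell genes were higher in replicate 1, and those values stand below beside the genes they bear on. Heart is a mix of cells, and in whole tissue fewer cells of a type and less RNA per cell cannot be told apart.

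The 10 genes spanned a wide range and 3 of them carried most of their summed level. Fabp3, Lpl and Cd36 held 88.0% of the summed TPM of the 10 genes in replicate 2 and 86.5% in replicate 1. The 10 genes together took up 1.34% of all TPM on nuclear protein-coding genes in replicate 2 and 1.24% in replicate 1. The highest mean level was 318-fold that of the lowest.

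**Figure D1:**
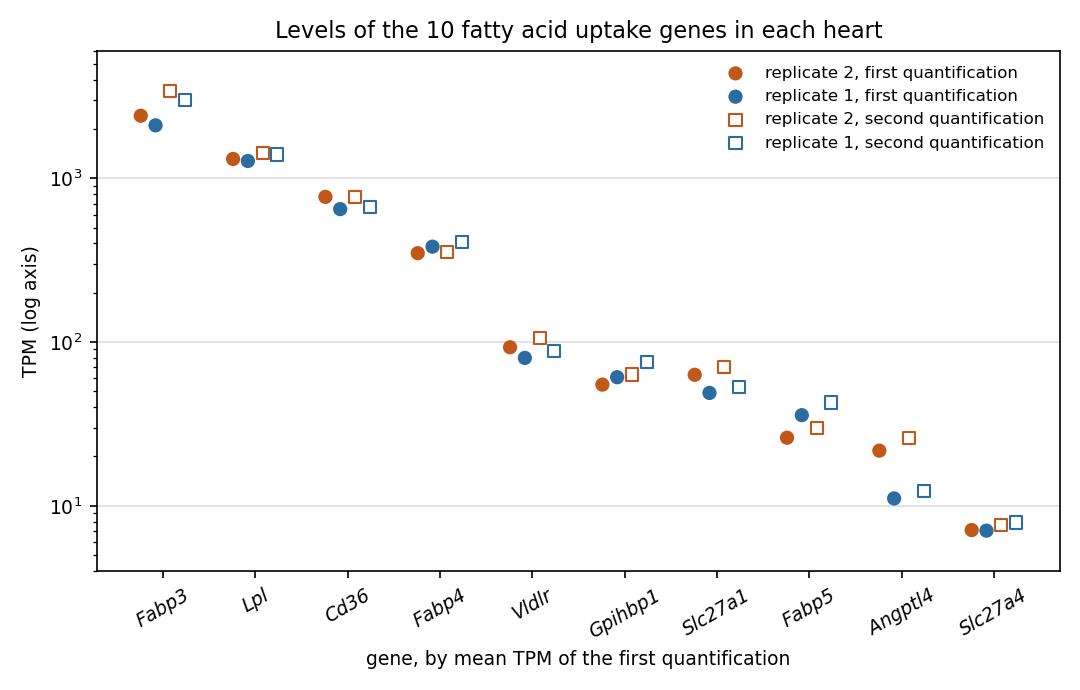
TPM on a log axis of the 10 genes in each heart, replicate 2 in orange and replicate 1 in blue, with filled circles for the first and open squares for the second quantification. The genes descend from Fabp3 at 2406 and 2102 TPM (replicates 2 and 1) to Slc27a4 at 7.11 and 7.05 TPM, and the hearts lie close together except for Angptl4.

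Lpl (ENSMUSG00000015568.16, mm10 chromosome 8, 68880491 to 68907448, + strand) encodes lipoprotein lipase, the enzyme that splits triglycerides at the capillary wall. It had 1311 TPM in replicate 2 and 1274 TPM in replicate 1, from 152627 and 147283 expected counts. Only Slc27a4 of the 10 genes varied less in proportion to its mean, and the mean of Lpl of 1292 ± 26.2 TPM (SD, n = 2) put it at rank 24 of 21938 nuclear protein-coding genes. Its neighbours in that order were Atp5g3, a subunit of the mitochondrial ATP synthase, at 1346 TPM and Aldoa, a glycolytic enzyme, at 1275 TPM. In the second quantification Lpl stood lower, at rank 36. The related lipases were almost absent. Lipg, the endothelial lipase, had 0 counts in replicate 2 and 1 in replicate 1, and Lipc, the hepatic lipase, had 1 count in replicate 2 and 0 in replicate 1.

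Gpihbp1 (ENSMUSG00000022579.10, chromosome 15, 75596628 to 75599481, + strand) encodes the endothelial protein that anchors the lipase in the capillary. It had 54.9 TPM in replicate 2 and 60.96 TPM in replicate 1, a mean of 57.9 ± 4.26 TPM (SD, n = 2). Lpl stood 23.9-fold above Gpihbp1 in replicate 2 and 20.9-fold above it in replicate 1, as ratios of TPM.

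Angptl4 (ENSMUSG00000002289.16, chromosome 17, 33773750 to 33781830, - strand) encodes the secreted inhibitor that unfolds the lipase, and it is a target gene of the fatty acid sensors called PPARs. It differed most between the hearts, with 21.7 TPM in replicate 2 and 11.1 TPM in replicate 1, from 1428 and 723 expected counts. The mean was 16.4 ± 7.51 TPM (SD, n = 2), so the SD came to 45.8% of the mean, against at most 22.2% for the other 9 genes. Lpl stood 60.4-fold above Angptl4 in replicate 2 and 115-fold above it in replicate 1.

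Vldlr (ENSMUSG00000024924.14, chromosome 19, 27216484 to 27254231, + strand) encodes the very low density lipoprotein receptor, which binds triglyceride-rich particles. It had 92.85 TPM in replicate 2 and 80.0 TPM in replicate 1. Its relative Lrp8, the apolipoprotein E receptor 2, had 0.41 TPM in replicate 2 and 0.26 TPM in replicate 1. The more distant receptor Lrp1 had 32.7 TPM in replicate 2 and 34.95 TPM in replicate 1.

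Cd36 (ENSMUSG00000002944.15, chromosome 5, 17781690 to 17888801, - strand) encodes the main fatty acid translocase of muscle and endothelium. It had 769 TPM in replicate 2 and 648 TPM in replicate 1, a mean of 708 ± 86.0 TPM (SD, n = 2) at rank 58 of the nuclear protein-coding genes. In that order it lay between the respiratory chain genes Uqcrh, at 713 TPM, and Ndufa3, at 702 TPM. In the second quantification Cd36 stood lower, at rank 87.

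Slc27a1 (ENSMUSG00000031808.7, chromosome 8, 71568882 to 71587302, + strand) encodes fatty acid transport protein 1, which couples uptake to acyl-CoA formation. It had 63.1 TPM in replicate 2 and 48.9 TPM in replicate 1. Slc27a4 (ENSMUSG00000059316.2, chromosome 2, 29802634 to 29817522, + strand), for fatty acid transport protein 4, was the lowest of the 10 genes at 7.11 TPM in replicate 2 and 7.05 TPM in replicate 1. Slc27a1 held 87.6 ± 2.68% and Slc27a4 11.2 ± 1.61% of the summed TPM of the 6 genes of their family (SD, n = 2). Slc27a6, a family member described in human heart, had 6 counts in replicate 2 and 10 in replicate 1, and the liver gene Slc27a5 had 0 counts in both. Cd36 stood 12.2-fold above Slc27a1 in replicate 2 and 13.3-fold above it in replicate 1.

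Fabp3 (ENSMUSG00000028773.8, chromosome 4, 130308595 to 130315463, + strand) encodes the heart-type fatty acid binding protein. It had 2406 TPM in replicate 2 and 2102 TPM in replicate 1 and ranked 14th of 21938 nuclear protein-coding genes, next to the contraction genes Tnnt2 at 3087 TPM and Pln at 2134 TPM. The second quantification placed it higher, at 3423 TPM in replicate 2 and 3001 TPM in replicate 1, although it assigned a similar number of reads, 58427 in replicate 2 and 51337 in replicate 1, against 58869.6 and 51234 in the first.

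Fabp4 (ENSMUSG00000062515.3, chromosome 3, 10204088 to 10208576, - strand), the binding protein of adipocytes and capillary endothelium, had 349 TPM in replicate 2 and 382 TPM in replicate 1. Fabp5 (ENSMUSG00000027533.10, chromosome 3, 10012548 to 10016607, + strand), the epidermal type that endothelium also makes, had 26.0 TPM in replicate 2 and 35.8 TPM in replicate 1. Over the 10 genes of the Fabp family, Fabp3 held 85.0 ± 2.20%, Fabp4 13.8 ± 1.85% and Fabp5 1.18 ± 0.341% of the summed TPM (SD, n = 2). Fabp1, Fabp2, Fabp6 and Pmp2, the types of liver, intestine, ileum and peripheral myelin, had 0 counts in both hearts, which allows up to 0.0706 CPM in replicate 2 and 0.0717 in replicate 1. The coding sequences of Fabp3 and Fabp4 were identical at 64.25% of aligned positions, Fabp4 and Fabp5 at 59.3%, and Fabp3 and Fabp5 at 56.2%. Expected counts of Fabp3 and Fabp5 were not whole numbers, so some of their reads had been divided among genes, and their values are less certain for that.

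In order of mean level the genes ran Fabp3, Lpl, Cd36, Fabp4, Vldlr, Gpihbp1, Slc27a1, Fabp5, Angptl4 and Slc27a4. Neighbouring genes did not overlap between hearts except Gpihbp1 and Slc27a1, whose values crossed, and the second quantification gave the same order and the same single overlap. With 2 hearts a gene's pattern is 1 ratio, so no other gene was named for likeness to these.

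Between the hearts, 0 of the 10 genes passed the 2-fold rule, against 161 (1.28%) of the 12536 genes whose expected counts averaged at least 50. Angptl4 came closest, with a log2 ratio of 0.94 (95% counting interval 0.81 to 1.07), and it stood at 1.01 when the libraries were scaled to their spike-ins. At 1.5-fold, 1 of the 10 genes, Angptl4, was higher in replicate 2, where 1.69% of the 12536 genes were. The remaining 9 differed by less than 1.5-fold, as did 95.7% of the 12536 genes.

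Scaled counts were higher in replicate 2 for 7 genes and in replicate 1 for 3. Of the transporters, Slc27a1 had a log2 ratio of 0.33 (0.27 to 0.39) and Cd36 of 0.23 (0.21 to 0.24). Vldlr stood at 0.20 (0.17 to 0.23) and Fabp3 at 0.16 (0.14 to 0.17). The genes higher in replicate 1 were Fabp5 at -0.46 (-0.60 to -0.33), Gpihbp1 at -0.17 (-0.28 to -0.065) and Fabp4 at -0.16 (-0.20 to -0.12). Lpl, at 0.0065 (-0.0039 to 0.017), and Slc27a4, at 0.014 (-0.12 to 0.15), had intervals that held 0. Since no test of the hearts is possible, these intervals show only which differences exceeded counting error under this scaling. Each of the 10 genes had at least 723 expected counts in each heart, so small differences can exceed it. The share of the 12536 genes tested for which this holds was not computed. The intervals take the scaling as exact. With spike-in totals Lpl stood at 0.080 and Gpihbp1 at -0.097, so which intervals hold 0 depends on the scaling. The median over the 10 genes was 0.085, against 0.00046 over the 12536 genes tested. The 8 cardiomyocyte markers had nearly the same median, 0.081, with 7 higher in replicate 2 and 1 in replicate 1. The part of muscle cell content in the differences of the 10 genes was not tested.

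**Figure D2:**
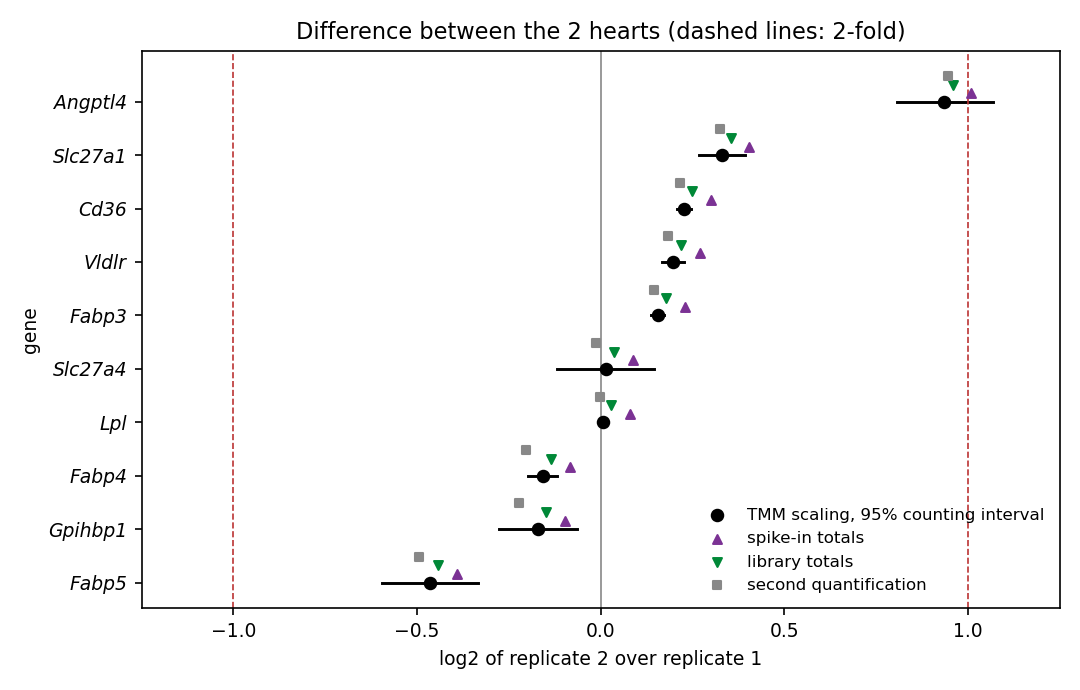
Log2 of replicate 2 over replicate 1 for each of the 10 genes with TMM-scaled counts (black circles, 95% counting intervals as lines), spike-in totals (upward triangles), library totals (downward triangles) and the second quantification (squares). Angptl4 at 0.94 lies by the dashed 2-fold line and crosses it with spike-in totals, at 1.01, while Fabp5, at -0.46, is the farthest toward replicate 1.

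Among the genes that act on the lipase or its particles, none passed the 2-fold rule. Of 19 such genes 13 were measured, meaning expected counts that averaged 10 or more, and 4 were higher in replicate 2 and 9 in replicate 1, with a median log2 ratio of -0.08 against 0.0012 over all measured genes. Lmf1, the chaperone that folds the lipase, had 12.5 TPM in replicate 2 and 11.1 TPM in replicate 1, and its partner Sel1l had 24.7 TPM in replicate 2 and 24.5 TPM in replicate 1. Furin, a protease that cuts the lipase and its inhibitors, had 44.3 TPM in replicate 2 and 43.7 TPM in replicate 1. Hspg2, the heparan sulfate proteoglycan of basement membranes, had 94.1 TPM in replicate 2 and 107 TPM in replicate 1, and Apoe, an apolipoprotein of the particles, had 127 TPM in replicate 2 and 129.8 TPM in replicate 1. Several liver-made regulators were at or near 0. Apoc2, the lipase activator, had 2 counts in each heart, Apoa5 had 0 in both, and Angptl8 had 0 in replicate 2 and 5 in replicate 1. Apoc1, which inhibits the lipase, had 5 counts in replicate 2 and 45 in replicate 1, too few for the rule. Sdc4, a cell surface proteoglycan, had 7.59 TPM in replicate 2 and 12.8 TPM in replicate 1.

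Downstream of uptake, the acyl-CoA synthetases trap fatty acids in the cell. Of 11 genes in that list 9 were measured, 3 higher in replicate 2 and 6 in replicate 1, with a median of -0.014, whose sign changed with the scaling. Acsl1, the main synthetase of heart, had 367 TPM in replicate 2 and 316 TPM in replicate 1, close to the level of Fabp4. Acsl5 had 4.42 TPM in replicate 2 and 9.43 TPM in replicate 1, from 493 and 847 expected counts. In the second quantification it had 7.31 TPM in replicate 2 and 9.96 TPM in replicate 1. No gene of this list passed the 2-fold rule.

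The PPAR target genes of the list used here, which respond to fatty acids, were mostly higher in replicate 2, as Angptl4 was. The list left out all the fatty acid uptake genes, Angptl4 among them, and did not take in the adipocyte markers given below. Of its 18 genes 15 were measured, 13 higher in replicate 2 and 2 in replicate 1. None passed the 2-fold rule, and the median was 0.16. This list, like the other context lists, was chosen with earlier results of these data known. Of all 15744 measured genes, 50.3% were higher in replicate 2, and of the cardiomyocyte markers 7 of 8 were, with the median of 0.081 given above. Acot1, a thioesterase that frees fatty acids from acyl-CoA, had 27.7 TPM in replicate 2 and 13.45 TPM in replicate 1. Its log2 ratio of 0.92 lay nearest to that of Angptl4 in this list, whereas Pdk4, the kinase that restrains glucose oxidation, stood at 0.16 with 705 TPM in replicate 2 and 632 TPM in replicate 1. Acot1 counts were not whole numbers and shared reads with other genes. The part of PPARs in the Angptl4 difference was not tested.

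A further list held genes known to act on CD36 or on the passage of fatty acids across heart capillaries, not all of them endothelial. Of its 13 measured genes, 8 were higher in replicate 2 and 5 in replicate 1, with a median of 0.053. Tcf15, a transcription factor that with Meox2 drives Cd36 and Lpl in heart endothelium of mice, had 18.5 TPM in replicate 2 and 9.81 TPM in replicate 1, and its partner Meox2 had 5.89 TPM in replicate 2 and 5.26 TPM in replicate 1. Aplnr, the apelin receptor, had 22.3 TPM in replicate 2 and 11.8 TPM in replicate 1. Vegfb, a growth factor linked to endothelial fatty acid uptake, had 164 TPM in replicate 2 and 153 TPM in replicate 1. Of 12 general capillary markers, 3 were higher in replicate 2 and 9 in replicate 1, their summed level was 603.5 TPM in replicate 2 and 619 TPM in replicate 1, and 1 gene passed the 2-fold rule, Rgcc, a cell cycle regulator, with 20.2 TPM in replicate 2 and 42.3 TPM in replicate 1. Aqp1, a water channel and the most abundant of these markers, had 219 TPM in replicate 2 and 248 TPM in replicate 1. Kdr, a receptor for vascular growth factor, had 36.9 TPM in replicate 2 and 26.4 TPM in replicate 1.

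Adipocyte markers stood apart between the hearts, which bears on Fabp4, Lpl, Cd36, Angptl4 and Vldlr because fat tissue expresses them too. Of 12 markers 11 were measured, 1 was higher in replicate 2 and 10 in replicate 1, 6 passed the 2-fold rule toward replicate 1, and their median was -1.80. Ucp1, the uncoupling protein of brown fat, had 46 counts in replicate 2 and 1635 in replicate 1. Plin1, which coats fat droplets, had 44 counts in replicate 2 and 648 in replicate 1, and Adipoq, the hormone adiponectin, had 35 in replicate 2 and 256 in replicate 1. The summed level of the list was 200.3 TPM in replicate 2 and 295 TPM in replicate 1, of which Dgat2, the triglyceride synthase, made up 146 TPM in replicate 2 and 129 TPM in replicate 1. Also past the 2-fold rule were Cidec, a fat droplet protein, with 40 counts in replicate 2 and 381 in replicate 1, Cfd, the protease adipsin, with 117 in replicate 2 and 397 in replicate 1, and Car3, a carbonic anhydrase, with 181 in replicate 2 and 1361 in replicate 1. Slc27a2, a relative of Slc27a1 outside the group, had 2 counts in replicate 2 and 49 in replicate 1. The part of fat in the higher Fabp4 and Fabp5 levels of replicate 1 was not tested. Red blood cell genes were also higher in replicate 1, all 6 past the 2-fold rule with a median of -1.19 and a summed level of 9336 TPM in replicate 2 and 20328 TPM in replicate 1. They were the globin genes Hbb-bs, Hbb-bt, Hba-a1 and Hba-a2, the haem synthesis gene Alas2 at 39.8 TPM in replicate 2 and 91.1 TPM in replicate 1, and the red cell anion exchanger Slc4a1 at 0.78 TPM in replicate 2 and 3.54 TPM in replicate 1. Their part in the levels of the 10 genes was not tested.

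**Figure D3:**
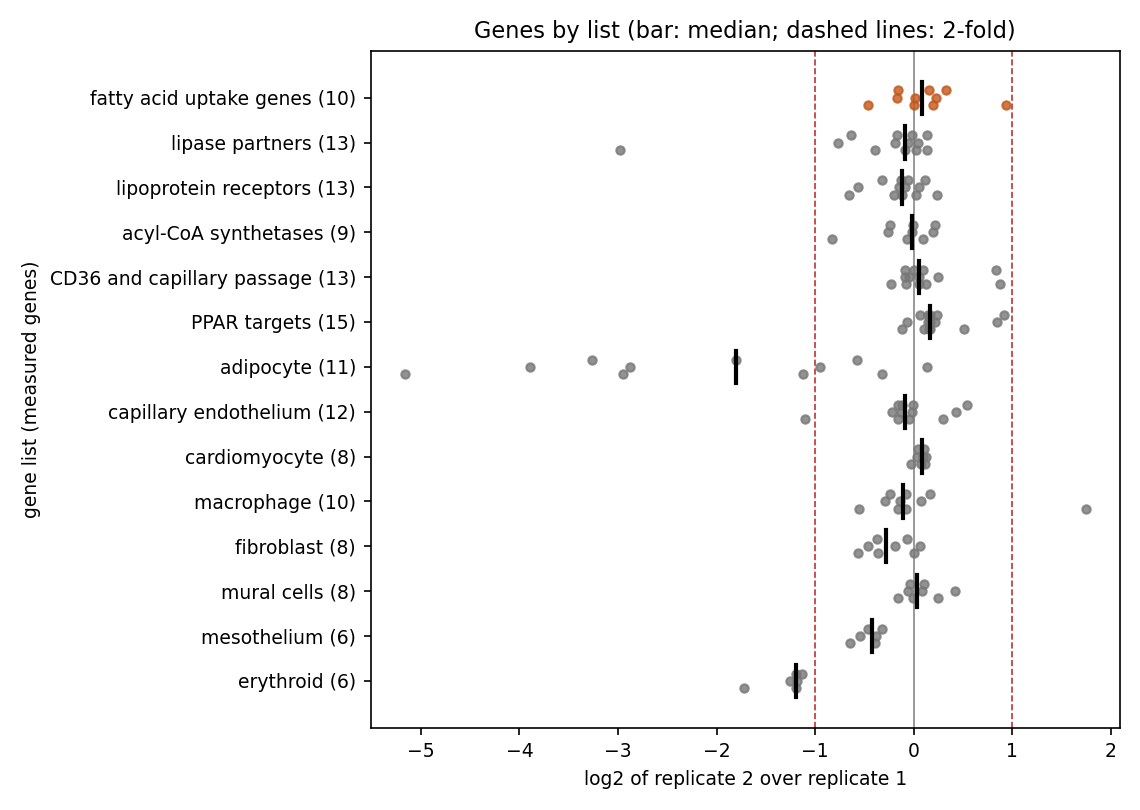
Log2 of replicate 2 over replicate 1 for each measured gene, by gene list, with the number of measured genes in brackets, the list median as a black bar and dashed lines at 2-fold. The 10 fatty acid uptake genes (orange) centre on 0.085 and stay inside 2-fold, while adipocyte genes, with a median of -1.80, and erythroid genes, at -1.19, lie toward replicate 1.

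The 10 genes have 44 annotated transcripts, and 8 genes had the same main transcript in both hearts and both quantifications. The share of all genes for which this holds was not computed. Transcript values are estimates, since most reads fit several transcripts of a gene. Fabp3 has a single transcript, of 823 nt, and Fabp4, Fabp5 and Slc27a4 had over 93% of their TPM on a single coding transcript in each heart and quantification. Gpihbp1 had 85.7% of its TPM in replicate 2 and 75.4% in replicate 1 on Gpihbp1-201, whose coding sequence is 684 nt, and 11.4% in replicate 2 and 19.3% in replicate 1 on shorter coding forms of 369 and 333 nt.

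Lpl was divided between forms with the same coding sequence. Lpl-201, with a long last exon of 2429 nt, held 74.1% of the gene's TPM in replicate 2 and 73.6% in replicate 1. Lpl-203 is annotated as subject to nonsense-mediated decay and ends in a further exon of 216 nt (chromosome 8, 68907233 to 68907448). It held 25.5% in replicate 2 and 26.0% in replicate 1. Both encode the same 1422 nt, so 99.6% of Lpl TPM in each heart lay on transcripts with the complete coding sequence.

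**Figure D4:**
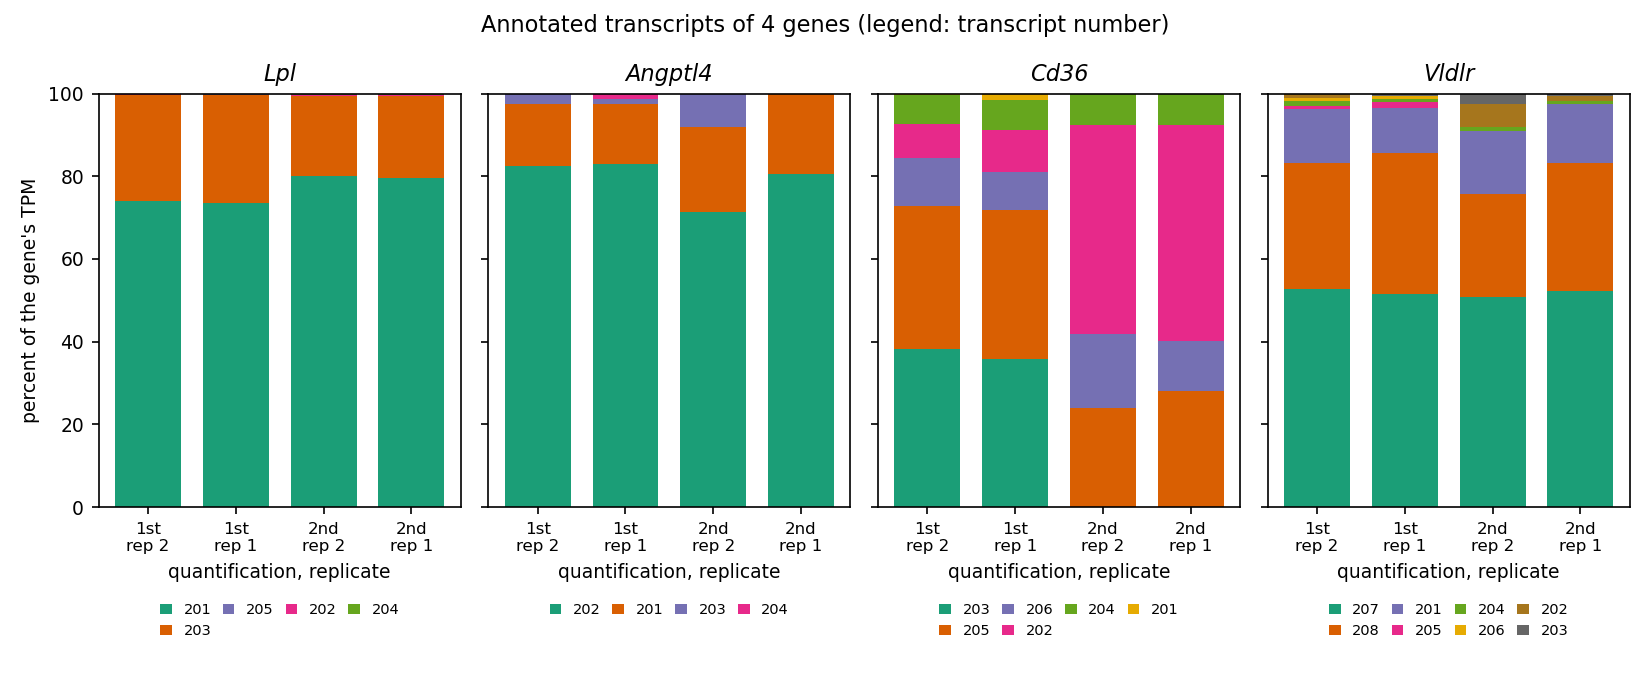
Percent of the TPM of Lpl, Angptl4, Cd36 and Vldlr on each annotated transcript, as stacked bars for replicates 2 and 1 in the first and then in the second quantification. Lpl, Angptl4 and Vldlr keep their main transcript throughout, while Cd36 has Cd36-203 at 38.2% in replicate 2 and 35.75% in replicate 1 of the first quantification and at 0 in the second.

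Angptl4 was assigned mostly to a form that does not encode the whole inhibitor. Angptl4-202, annotated as subject to nonsense-mediated decay, held 82.5% of the gene's TPM in replicate 2 and 83.0% in replicate 1, and Angptl4-201, the coding form, held 15.1% in replicate 2 and 14.5% in replicate 1. Their coding sequences are 462 and 1230 nt long. The forms part where an exon begins 4 bases later in Angptl4-202 (chr17:33780644-33780647, - strand, mm10), which shifts the reading frame. They differ also in where they start and end. Angptl4-201 ends in an exon of 1819 nt and Angptl4-202 in one of 661 nt, so reads outside the 4 bases also set these shares. The share of RNA with either junction was not measured by itself. Both junctions are shown 5′ to 3′ from the GENCODE M21 transcripts, with capitals for the 4 bases that only Angptl4-201 holds.
Angptl4-201: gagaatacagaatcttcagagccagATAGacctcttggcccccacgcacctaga
Angptl4-202: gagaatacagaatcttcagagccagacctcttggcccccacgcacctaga
The higher Angptl4 level of replicate 2 was present in both forms. Angptl4-202 had 17.9 TPM in replicate 2 and 9.21 TPM in replicate 1, and Angptl4-201 had 3.27 TPM in replicate 2 and 1.60 TPM in replicate 1. In the second quantification Angptl4-202 held 71.3% in replicate 2 and 80.6% in replicate 1.

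Vldlr was expressed with and without an exon of 84 nt, the 16th of 19 in Vldlr-207 (chr19:27246593-27246676, + strand, mm10), which is known to encode the O-glycosylated stretch next to the membrane. Among transcripts that span the place, the form with the exon held 54.2% of TPM in replicate 2 and 53.4% in replicate 1, and in the second quantification 52.6% in replicate 2 and 52.9% in replicate 1. Because 84 is a multiple of 3, the coding sequences of 2619 nt in Vldlr-207 and 2535 nt in Vldlr-208 keep the same frame. The sequences are shown from GENCODE M21 with the exon in capitals and 25 bases on either side.
Vldlr-207: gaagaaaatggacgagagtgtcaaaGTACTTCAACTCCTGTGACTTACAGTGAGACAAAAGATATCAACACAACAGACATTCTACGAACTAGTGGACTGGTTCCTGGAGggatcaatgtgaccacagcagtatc
Vldlr-208: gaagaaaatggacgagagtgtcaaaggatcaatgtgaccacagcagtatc
Vldlr-207 ends in an exon of 5127 nt and Vldlr-208 in one of 758 nt, so reads outside the 84 nt also set these shares. Vldlr-201, which lacks the exon and is annotated as subject to nonsense-mediated decay, held 12.9% in replicate 2 and 10.98% in replicate 1.

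Cd36 starts at 3 annotated places, and the quantifications put its RNA at different ones. The distal start, used by Cd36-203 and Cd36-205, held 72.7% of TPM in replicate 2 and 71.9% in replicate 1. Of this, the incomplete Cd36-205, of 702 nt, held 34.5% in replicate 2 and 36.15% in replicate 1. In the second quantification the middle start, used by Cd36-202 and Cd36-204, held 58.1% in replicate 2 and 59.9% in replicate 1. The distal start held 23.9% in replicate 2 and 28.1% in replicate 1 there, nearly all of it on Cd36-205. The proximal start, of Cd36-201 and Cd36-206, held between 10.8 and 18.0% in each heart and quantification. Within each quantification both hearts gave the same order of the 3 starts. Apart from Cd36-205, which is annotated as incomplete, all these transcripts encode the same 1416 nt.

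**Figure D5:**
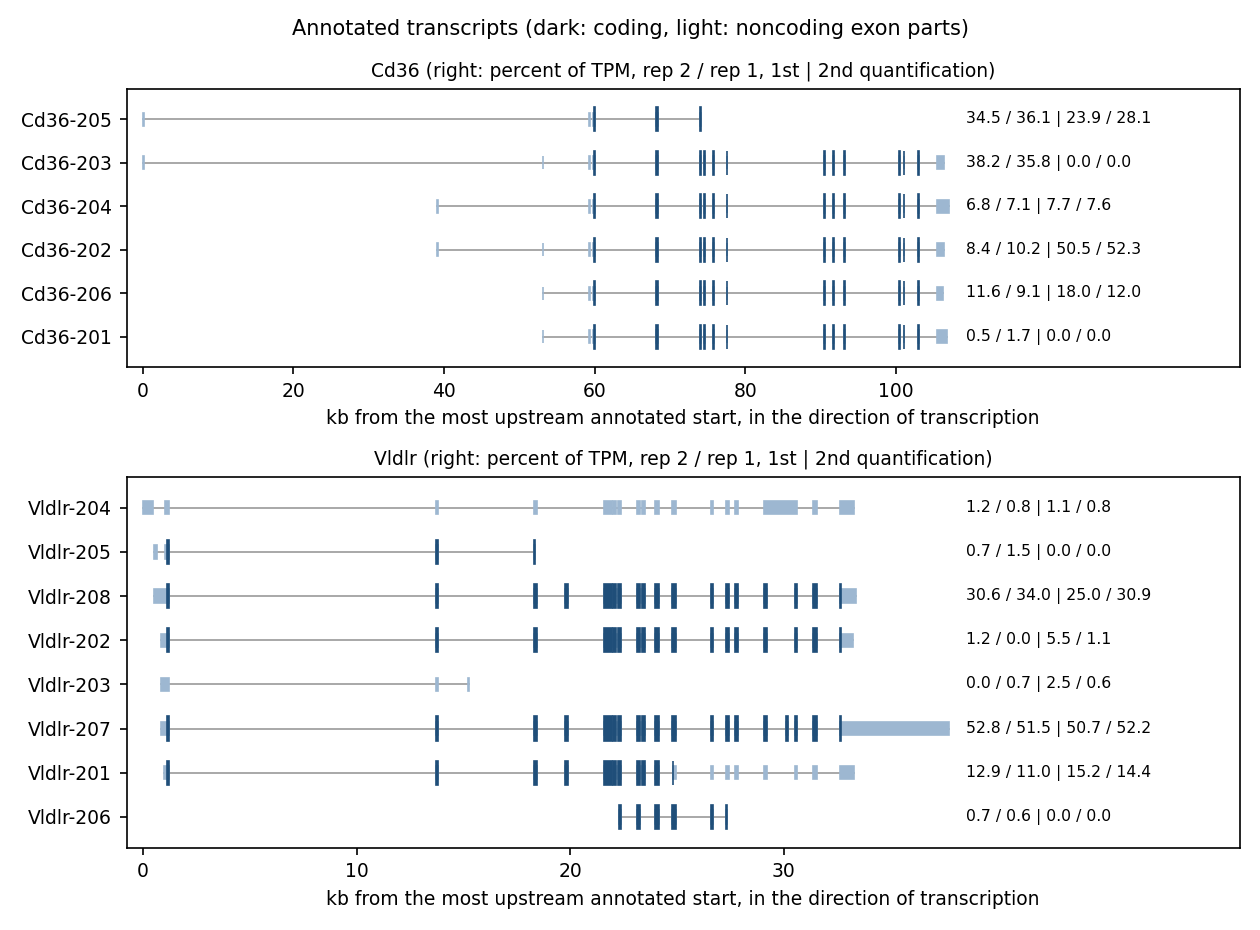
Annotated transcripts of Cd36 and Vldlr against distance in kb from the most upstream start, with coding parts dark and noncoding exon parts light, and at the right the percent of the gene's TPM in replicates 2 and 1 for both quantifications. The Cd36 transcripts with a complete coding sequence share their coding exons and differ in the first exons and the last, the incomplete Cd36-205 stops early, and Vldlr-207, at 52.8% in replicate 2 and 51.5% in replicate 1, has both the additional exon and the long last exon.

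Slc27a1 was spread over 9 annotated transcripts. Coding forms held 43.4% of its TPM in replicate 2 and 47.0% in replicate 1, and forms that retain an intron held 40.9% in replicate 2 and 39.0% in replicate 1. In replicate 2 the main transcript was the coding Slc27a1-207 at 22.7%, and in replicate 1 it was the retained-intron Slc27a1-202 at 23.7%. The second quantification put Slc27a1-207 first in both hearts, at 48.3% in replicate 2 and 53.9% in replicate 1.

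RefSeq promoter windows (GRCm38.p6, from 250 bases before to 50 after the start) were at hand for 5 of the 10 genes, Cd36, Fabp3, Slc27a1, Slc27a4 and Vldlr, as 8 windows. None lay at the start of Vldlr-207, the main Vldlr transcript, or at the distal and middle starts of Cd36. The counts below therefore leave those starts out. They also count windows of the same gene separately, several of them of Slc27a1. Some windows lay at starts with little TPM. That of Vldlr-204 held 1.19% of the gene's TPM in replicate 2 and 0.77% in replicate 1. That of Slc27a1-206 and Slc27a1-204 held 3.83% in replicate 2 and 2.33% in replicate 1. Each motif was searched on both strands. The CCAAT box (CCAAT) was in 4 of the 8 windows, against 37.4% of all 32851 promoters, and the GC box (GGGCGG) in 5, against 35.7%. The TATA box (TATAAA) was in none, against 13.6% of all promoters. The nuclear receptor half-site (AGGTCA), a part of the element that PPARs bind, was in 1 window, that of the proximal Cd36 start, against 16.3% of all, and a direct repeat of it with 1 base between was in none, against 0.0396% of all. The 250 bases before the proximal start of Cd36 (chr5:17835897-17836146, - strand, GRCm38.p6) are shown 5′ to 3′ because they were the only ones of the 8 with a half-site, in capitals here with the CCAAT box and both GC boxes.
Cd36 proximal start: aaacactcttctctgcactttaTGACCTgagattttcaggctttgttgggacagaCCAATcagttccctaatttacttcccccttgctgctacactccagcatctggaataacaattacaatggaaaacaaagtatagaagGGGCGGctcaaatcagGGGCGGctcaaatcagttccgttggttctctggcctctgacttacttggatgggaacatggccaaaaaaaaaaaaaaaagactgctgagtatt
A match describes these letters only. The stretch precedes the RefSeq start at 17835896, while the GENCODE transcripts of the proximal start, Cd36-206 and Cd36-201, begin downstream of it at 17835717 and 17835696. These 2 transcripts held 12.1% of Cd36 TPM in replicate 2 and 10.8% in replicate 1.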

How the data were processed

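Expected counts, TPM and FPKM per gene, and expected counts and TPM per transcript with the percent of a gene's TPM on each transcript, were deposited by the authors as a first quantification on mm10 with GENCODE M21, per the sample notes. The authors also deposited a second quantification with estimated counts and TPM for each transcript, which were summed per gene here. For both, the sources used here name no tool or version.

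Expected counts were scaled with TMM factors (edgeR 4.0.16, R 4.3.3, DESeq2 1.42.0 as an alternative) after rounding to whole numbers, and ratios used a prior count of 1 with an exact Clopper-Pearson interval. Intervals and floors cover counting error only, since reads and not molecules were counted. The limit for a gene at 0 was taken as 3 counts. Entries that are neither genes nor spike-ins, 0.00523% of expected counts in replicate 2 and 0.00465% in replicate 1, were left out. The ratio was tested on simulated counts with a set spread, and the interval on simulated counts with counting error alone. How the interval performs under the real spread between hearts was not tested.

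All 10 genes were to be named. From the context lists, genes past 2-fold, some of the most abundant and others were named, and from the rank order the neighbouring genes. Results for some genes of the lists are not reported here. The genes and lists were chosen with earlier results of these data known. Alternatives covered scalings, count minimums, folds, units, the second quantification and each heart alone.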

Additional observations from a re-analysis of the deposited data

How the results depend on the processing

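The count of the 10 genes past 2-fold was 0 with TMM and became 1, Angptl4, with spike-in totals, and also 1 at 1.5-fold. Over all genes the count of 161 became 561 with a mean count of 10 or more, 83 with 200 or more, 535 at 1.5-fold and 57 at 3-fold. Signs changed for 2 of the 10 genes, Lpl (-0.0023) and Slc27a4 (-0.013), both in the second quantification. The median of the acyl-CoA synthetase list turned positive with library totals (0.0089), spike-in totals (0.060) and the second quantification (0.0096). In the second quantification Fabp3 held 88.4% and Fabp4 10.6% of their family. By expected counts, which are not scaled by length, Slc27a1 held 81.1% and Slc27a4 17.9%. Each heart alone gave family shares of 83.4 to 86.5% for Fabp3, 12.5 to 15.2% for Fabp4, 0.936 to 1.42% for Fabp5, 85.7 to 89.5% for Slc27a1, 10.1 to 12.4% for Slc27a4 and 99.998 to 99.999% for Lpl. Transcript shares were set beside the second quantification after seeing the data: the distal Cd36 start held a mean of 26.0% there against 72.3% in the first, the Vldlr exon 52.8% against 53.8%, Lpl-201 79.9% against 73.85%, and Angptl4-202 76.0% against 82.7%. The cause of these changes was not tested. No paired analysis was possible because the series has 1 group. Depth leaves the ratios of Slc27a4, Fabp5 and Angptl4 with the widest counting intervals of the 10 genes.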

Other observations

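The other Fabp relatives were low but not all at 0. Fabp7, the brain type, had 9 counts in replicate 2 and 11 in replicate 1, and Fabp12 had 0 counts in replicate 2 and 3 in replicate 1. Among PPAR targets known mainly from liver, Cyp4a10 had 3 counts in replicate 2 and 0 in replicate 1, Cyp4a14 had 0 in both, and Fgf21 had 0 in replicate 2 and 1 in replicate 1. Ucp3, the uncoupling protein of muscle, had 26.7 TPM in replicate 2 and 18.05 TPM in replicate 1.

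Mesothelial markers, which mark the surface layer of the heart, were higher in replicate 1 for 6 of 6 genes, with a median log2 ratio of -0.43 and a summed level of 19.7 TPM in replicate 2 and 26.3 TPM in replicate 1. Fibroblast markers were higher in replicate 1 for 6 of 8 genes, with a median of -0.28. Mural cell markers were even, 4 higher in each heart, with a median of 0.036. Of the macrophage markers, 3 were higher in replicate 2 and 7 in replicate 1, and Cx3cr1, a chemokine receptor, passed the 2-fold rule with 255 counts in replicate 2 and 73 in replicate 1. None of these lists holds any of the 10 fatty acid uptake genes.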
